A study of Rattus norvegicus with 2 samples.

Results

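Neuron and glia enriched microRNAs (miRNAs) were followed in rat carotid artery: 10 of the 350 rat miRNAs on the array. They were listed by name, with earlier results of these data known. The 8 neuronal members were rno-miR-9, rno-miR-9*, rno-miR-124, rno-miR-128, rno-miR-129, rno-miR-129*, rno-miR-137 and rno-miR-138, and the 2 glial members were rno-miR-219-5p and rno-miR-338; the species prefix is left off from here on. A star marks the passenger strand of a hairpin in the older naming. One array held RNA from a carotid artery 10 days after balloon injury, and the other held RNA from a carotid artery that was not injured. Both came from male Sprague-Dawley rats of 250 g. The labels used here state neither the age of the rats, nor how many rats contributed to each RNA, nor whether the control was sham-operated. In balloon injury an inflated catheter removes the endothelium and stretches the wall. The comparison asked how the miRNA profile of the remodelling wall differs from that of the intact vessel. With 1 array per group there is no replicate error, so the values describe these 2 arrays and no p-value is given.

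A mature miRNA guides the silencing complex to messenger RNAs that pair with its seed, bases 2 to 8 from its 5′ end. Several miRNAs are far more abundant in neurons or in myelinating glia than in other cells, and there they hold down transcripts of other lineages or of earlier stages of development. The arterial wall is made mostly of smooth muscle and connective tissue, but sympathetic and sensory nerve fibres run in its outer layer, with Schwann cells around them. RNA extracted from whole artery pools all of these cells, so fewer cells of a type and less RNA per cell cannot be told apart.

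The mature sequences of the members that were detected on at least 1 array are shown because a seed decides which messages a miRNA can bind, and because similar sequences could share a probe signal. They are RefSeq sequences (rat build GRCr8) for 9 of the 10 members, of which miR-129 is left out below, and miR-124 is given by name. The older array names were paired with the present arm names from miRBase's naming (miR-9 is now miR-9a-5p). Capitals mark the seed.
miR-9: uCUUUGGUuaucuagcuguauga
miR-9*: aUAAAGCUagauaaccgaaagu
miR-128: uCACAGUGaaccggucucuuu
miR-129*: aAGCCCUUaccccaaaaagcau
miR-137: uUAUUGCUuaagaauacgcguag
miR-138: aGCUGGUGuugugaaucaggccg
miR-219-5p: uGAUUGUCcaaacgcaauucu
miR-338: uCCAGCAUcagugauuuuguuga

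The 9 matched members had 9 different seeds, so no pair of them belongs to 1 seed family. Of the 693 mature rat miRNAs in the table, only miR-129-1-3p shared a seed with a member, namely with miR-129*. All 19 bases of miR-129-1-3p equal the first 19 of the miR-129* sequence above (miR-129-2-3p), and the name on the array does not say which of these arms its probe was built for. The closest other mature miRNAs lay at an edit distance of at least 5 from each of the remaining 8. The members' sequences therefore shared no seed, and they ranged in GC content from 31.8% for miR-9* to 57.1% for miR-129.

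The hairpins lie on many chromosomes. miR-137 has 1 copy, at chr2:209165767-209165789 on the plus strand, inside the span of the long noncoding gene LOC120100931. miR-338 has 1 copy, at chr10:105796345-105796367 on the minus strand, inside the span of Aatk, a kinase gene of the nervous system. The sequence of miR-9 is found at 3 loci, chr1:142849415-142849437, chr2:15933307-15933329 and chr2:175974986-175975008, all on the plus strand, inside Mir9-3hg, Mir9-2hg and LOC100911992. miR-138 has 2 loci, chr8:131178456-131178478 on the plus strand inside the noncoding genes LOC103690480 and LOC102550701, and chr19:10680184-10680206 on the minus strand inside Slc12a3. miR-128 also has 2, chr8:120963807-120963827 on the minus strand inside Arpp21 and chr13:42251933-42251953 on the plus strand inside R3hdm1. The only locus listed here for the miR-219-5p sequence is chr3:33516561-33516581 on the minus strand inside Cercam. The array also names the partner arms miR-219-1-3p and miR-219-2-3p, so a further hairpin may be missing from these loci. The miR-129* sequence is at chr3:100657405-100657426 on the minus strand inside no other annotated gene. Of the 12 loci in the table for the matched members, 11 lay inside the span of another gene. The noncoding genes LOC120094269 and LOC120101515 also span the chr8 locus of miR-128 and the locus of miR-219-5p. The gene table used here gives spans only, so exons and introns are not separated. Spans were matched by position without regard to strand, so a gene named here may lie on the opposite strand.

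Detection was taken from the flag of each feature. The files do not define the flag, and it was read this way because each of the 7 negative controls carried a 0 on either array. The negative controls ran from 0.353 to 4.92 on the injured array and from 1.33 to 8.19 on the uninjured array, in arbitrary intensity units. All 7 were listed lower on the injured array, by a median of 1.54-fold and by 1.22-fold to 8.87-fold without scaling. The largest of these folds was from 3.13 on the uninjured array to 0.353 on the injured array. A value of exactly 1 stood for 109 of the 350 miRNAs on each array, none of them detected. It is read here as a placeholder and not as a lower limit, since 24 miRNAs on the injured and 27 on the uninjured array, also undetected, were listed below it. The negative controls NC2_00079215 and NegativeControl were also listed at 1 on the injured array, so their folds rest on this placeholder. The injured array had 184 detected miRNAs and the uninjured array 166, and their summed signals were 97479 and 95491. Smooth muscle miR-143 was the brightest miRNA of both arrays. This goes with tissue rich in smooth muscle, but by itself it does not identify carotid artery or tell which array was injured.

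By the flag, most neuronal members were detected in the uninjured artery and were not detected after injury. Of the 10 members, 3 were detected on the injured array (52.6% of all 350 miRNAs were) and 8 on the uninjured array (47.4% of all). Detected only on the uninjured array were 6 members, against 8 of all 350 miRNAs (2.29%). All 6 were neuronal: miR-9, miR-9*, miR-124, miR-129*, miR-137 and miR-138. miR-128 and miR-338 were detected on both arrays, as were 158 of all 350. miR-219-5p was detected only on the injured array, as were 26 of all 350 (7.43%). miR-129 was detected on neither array, as were 158 of all 350.

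**Figure D1:**
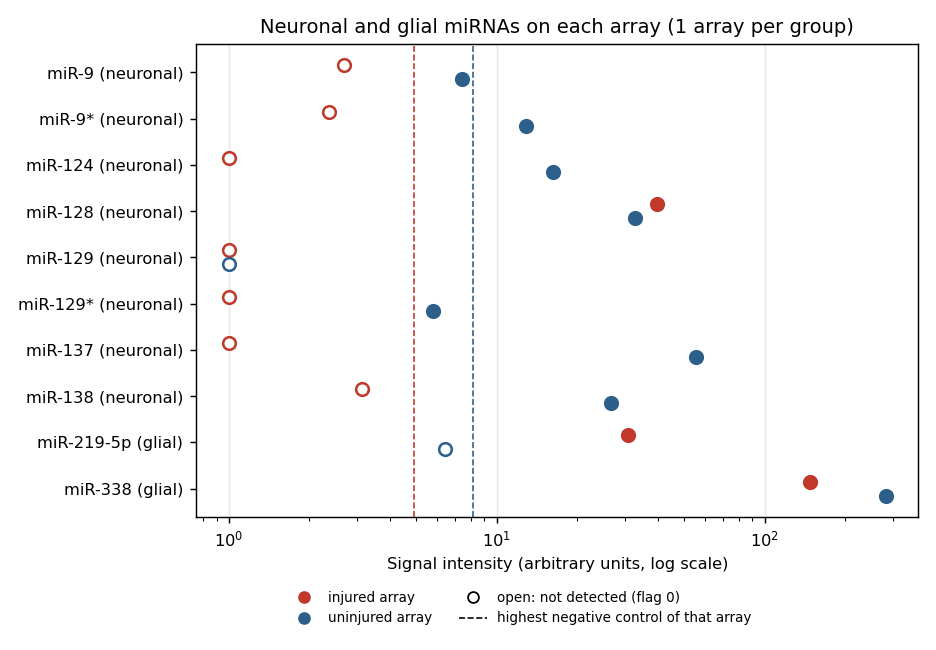
Signal intensity (log scale) of the 10 members on the injured array (red) and the uninjured array (blue), 1 array each; filled points were detected, open points were not, and dashed lines mark the highest negative control of each array (4.92 injured, 8.19 uninjured). The 6 neuronal members detected only on the uninjured array lie left of the injured array's line after injury, while miR-219-5p shows the opposite arrangement.

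miR-137, which restrains growth of dendrites and is a regulator of neuronal maturation, had the widest gap. Its signal was listed at the placeholder of 1 on the injured array and was 55.5 on the uninjured array. It was at least 38.3-fold lower in the injured artery, with the lowest detected signal of the injured array (1.36) standing in for the missing value. Against the highest negative control of that array, an alternative added after the data were seen, the bound was 10.6-fold, and against its highest undetected signal (5.98) it was 8.74-fold. The 2 non-members nearest to it in uninjured signal, miR-222 and miR-127, were detected on both arrays, at 113 and 86.6 on the injured array and at 59.5 and 61.7 on the uninjured array.

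miR-138 limits the size of dendritic spines in rat hippocampal neurons. It had 3.15 on the injured array, where it was not detected and 1 of the 7 negative controls was higher, and 26.6 on the uninjured array. The fold was at least 7.96 lower in the injured artery, and at least 5.09 against the highest negative control. Its passenger strand miR-138* was detected on neither array, with 2.51 on the injured and 2.78 on the uninjured array. Only the guide strand miR-138 therefore gave a measured value.

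miR-124 is the neuron-specific miRNA that represses non-neuronal transcripts, and in brain it is among the most abundant of all. It was listed at the placeholder of 1 on the injured array and was at 16.2 on the uninjured array, where it lay above every negative control. The bound was 11.2-fold lower in the injured artery, or 3.10-fold against the highest negative control. miR-124* was listed at 1 and not detected on either array.

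miR-9 and miR-9* are the 2 arms of the same hairpins, act in neural progenitors and differentiating neurons, and are made together. miR-9* had 2.37 on the injured array, under 3 of the 7 negative controls, and 12.9 on the uninjured array, above all of them. It was at least 5.11-fold lower in the injured artery, and at least 2.46-fold against the highest negative control. miR-9 had 2.69 on the injured array and 7.43 on the uninjured array, a bound of 2.60-fold lower in the injured artery. Its uninjured signal was flagged as detected but lay under 2 of the 7 negative controls, and its bound against the highest negative control was 1.42-fold. Both arms were lower after injury, but they share their precursors and are not separate observations.

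miR-129* was listed at the placeholder of 1 on the injured array and was at 5.77 on the uninjured array, the lowest uninjured signal of the 6. It was at least 3.98-fold lower in the injured artery. That bound shrank to 1.10-fold against the highest negative control, and against the highest undetected signal none above 1 was left. The other arm, miR-129, which in neurons acts on a potassium channel message, was listed at 1 and not detected on either array. So 4 of the 6, namely miR-9*, miR-124, miR-137 and miR-138, lay above every negative control of the uninjured array, and miR-9 and miR-129* did not.

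miR-128 is enriched in neurons of the brain, where it dampens excitability, and is also made in many other tissues. It had 39.8 on the injured array and 32.9 on the uninjured array, above every negative control on each. Its log2 ratio was 0.36, which is 1.29-fold higher in the injured artery. The sign turned with the scaling: it was -0.08 when array medians were matched, -0.14 when the 75th percentiles of all miRNAs were matched and -0.23 when control features were matched. It was the only neuronal member detected in the injured artery, and it stayed within 1.5-fold under each of these scalings.

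The glial members went in opposite directions. In oligodendrocytes miR-219 and miR-338 together repress messages that keep precursors from maturing, and miR-338 is also made in neurons from within Aatk. miR-219-5p had 30.9 on the injured array and 6.41 on the uninjured array, where it was not detected and 2 of the 7 negative controls were at or above it. The bound was 5.12-fold higher in the injured artery, and 4.01-fold against the highest negative control of the uninjured array. Its partner arms miR-219-1-3p and miR-219-2-3p were both listed at 1 and not detected on either array.

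miR-338 had 147 on the injured array and 283 on the uninjured array, the brightest signals of the 10 members. It was 1.81-fold lower in the injured artery. It crossed 2-fold under 4 of the 5 other scalings, at 2.13-fold lower after quantile normalization, 2.46-fold with array medians matched, 2.55-fold with 75th percentiles of all miRNAs matched and 2.72-fold with control features matched. Without scaling it was 1.92-fold lower. Its passenger strand miR-338* had 1.36 on the injured array and 1.60 on the uninjured array, and was flagged as detected only on the injured one. That 1.36 is the lowest detected signal of the injured array, under 4 of its 7 negative controls, and it is the value that sets the bounds of miR-124, miR-129* and miR-137.

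With bounds included, 6 of the 9 members detected on at least 1 array were at least 2-fold lower in the injured artery, against 13 of 185 miRNAs over the whole array (7.03%). One member, miR-219-5p, passed 2-fold upwards, against 33 of 185 (17.8%). The median log2 ratio or bound was -1.99 over the 9 members and 0.20 over the 185 miRNAs. For the 7 neuronal members with a value it was -2.35. These medians mix measured ratios with bounds, which only limit a ratio from 1 side. The summed signal of the 8 neuronal members was 52.0 on the injured array and 158 on the uninjured array, and that of the 2 glial members 178 and 289. These sums include signals that were not detected, some of them the placeholder of 1. Of the 52.0, 39.8 came from miR-128, the only neuronal member detected there. The 289 includes the undetected 6.41 of miR-219-5p.

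**Figure D2:**
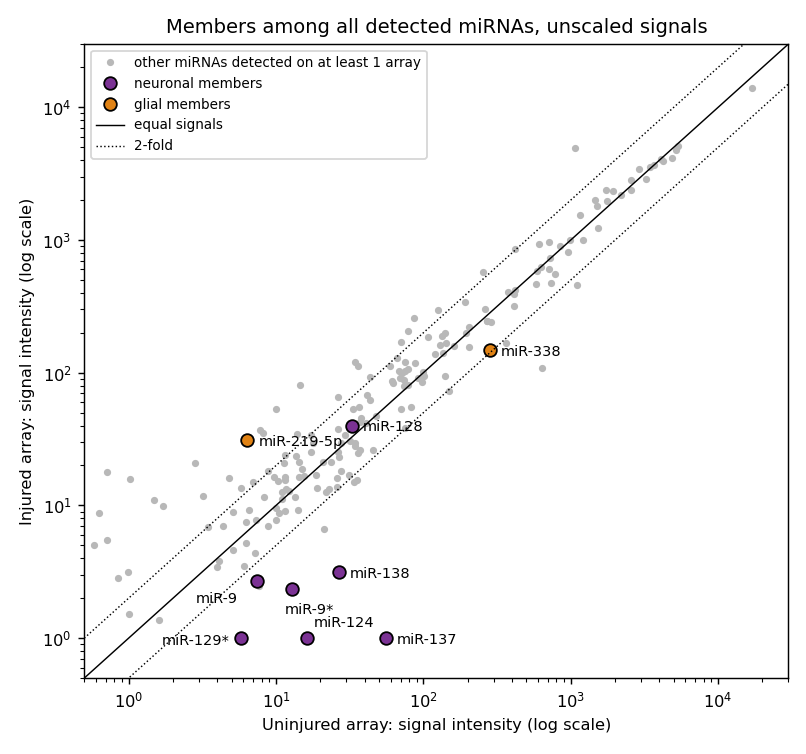
Injured (y axis) against uninjured (x axis) signal intensity, both on log scales and without scaling between arrays, for every miRNA detected on at least 1 array; the solid line marks equal signals and the dotted lines 2-fold. The 6 neuronal members detected only on the uninjured array lie below the lower 2-fold line, at uninjured signals from 5.77 to 55.5, as does the non-member miR-598-3p close to miR-9. miR-128 lies 1.21-fold above the line of equal signals and miR-219-5p above the upper 2-fold line.

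Most non-members of similar uninjured signal were detected on both arrays. The 6 members detected only on the uninjured array had signals there between 5.77 and 55.5. In that range the uninjured array held 69 detected non-members, of which 67 were also detected on the injured array and 2 were not (2.9%). These 2, miR-326 and miR-598-3p, lay near its low end, at 7.23 and 7.63. Between the uninjured signals of miR-129* and miR-598-3p, the only non-members detected on both arrays were let-7d* and miR-487b, at 6.11 and 7.35 there. The pooled share therefore does not describe signals as dim as those of miR-9 and miR-129*. The range was set by the 6 members themselves, and miR-128, at 32.9, also lay in it and was detected on both arrays. Of those 67, 3 were at least 2-fold lower and 10 at least 2-fold higher in the injured artery, with a median log2 ratio of 0.19 and a lowest value of -1.58, for the muscle miRNA miR-1. No test was made of this difference, since the members were picked with these values known and each group is 1 array.

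The scaling moved the members together. Of the 2 members detected on both arrays, miR-338 stayed lower in the injured artery and miR-128 changed sign. A bound is given only in the direction of detection, so members detected on 1 array could not change direction. The plot of the 9 members under each setting also shows the effect of the value put in for an undetected signal. With the injured array's highest undetected signal in that place, miR-138 was at least 4.19-fold, miR-124 2.56-fold, miR-9* 2.02-fold and miR-9 1.17-fold lower in the injured artery, further from the reported bounds than under any of the scalings. With that of the uninjured array (8.84), miR-219-5p was higher by 3.71-fold or more. The authors' deposited table, a ratio of injured over uninjured signal without scaling, lists 0.0180 for miR-137, 0.0616 for miR-124, 0.118 for miR-138, 0.184 for miR-9*, 0.173 for miR-129* and 0.362 for miR-9. Those of miR-137, miR-124 and miR-129* divide the placeholder of 1 by the uninjured signal, so their size rests on that substituted value.

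**Figure D3:**
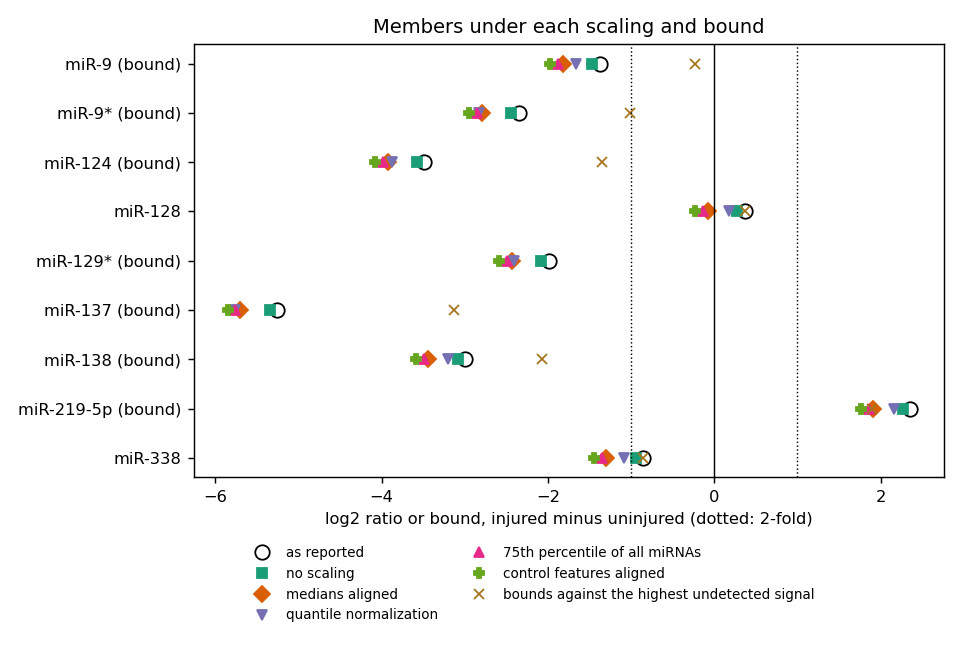
Log2 ratio or bound, injured minus uninjured (x axis), of the 9 members detected on at least 1 array under the reported setting, the 5 other scalings and bounds against the highest undetected signal; dotted lines mark 2-fold. Scalings shift all members by similar amounts, and the crosses of the undetected members move towards 0. Only miR-128 lies on both sides of 0, which a bound cannot do by its definition.

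A further list of 19 nerve-enriched miRNAs was mixed. Detected on the injured array were 5 of them (52.6% of all 350 miRNAs were) and on the uninjured array 6 (47.4% of all). On neither array were 12 detected, against 158 of all 350. The 2 detected only on the uninjured array were miR-598-3p, with 2.48 on the injured and 7.63 on the uninjured array, and miR-326, with 4.36 and 7.23 on the injured and the uninjured array. Their bounds were 2.89-fold and 1.56-fold lower in the injured artery, and both uninjured signals lay under at least 1 negative control. These 2 and the 6 members are the 8 of all 350 miRNAs (2.29%) that were detected only in the uninjured artery. Members and list were chosen with earlier results of these data known, so this overlap is no separate evidence.

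The other detected miRNAs of that list did not share this pattern, and the 12 detected on neither array could show none. miR-132, an activity-induced miRNA of neurons that many other cells also make, had 17.8 on the injured array and was not detected on the uninjured array, at 0.711. Its cluster partner miR-212 had 162 on the injured and 129 on the uninjured array. miR-7a, a miRNA of neurons and endocrine cells, had 21.2 and 21.0 on the injured and the uninjured array, and miR-134, a dendritic miRNA of hippocampal neurons, 16.8 and 18.6. miR-218, a miRNA of motor neurons, had 72.2 on the injured and 150 on the uninjured array. It was 1.95-fold lower in the injured artery, or 2.07-fold without scaling. The list's median log2 ratio or bound was -0.06 over 7 miRNAs, against 0.20 over the whole array.

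**Figure D4:**
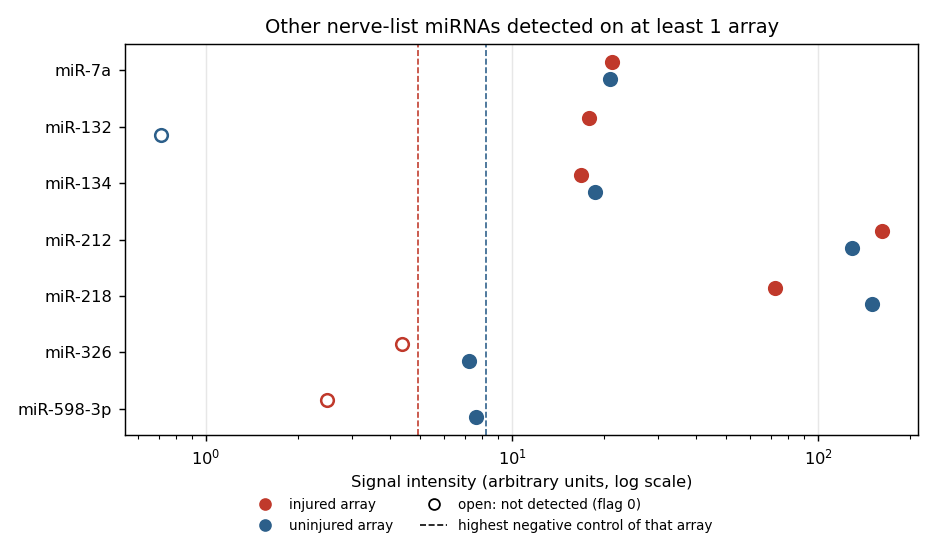
Signal intensity (log scale) of the 7 further nerve-list miRNAs detected on at least 1 array, injured array in red and uninjured array in blue, open where not detected, with dashed lines at the highest negative control of each array. miR-598-3p and miR-326 were detected only on the uninjured array, miR-132 only on the injured array, and the other 4 on both.

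Markers of some other cell types differed between the arrays as well. All 5 leukocyte miRNAs were detected on both, with a summed signal of 515 on the injured and 241 on the uninjured array, and 3 were at least 2-fold higher after injury. The other members of that list were miR-342-3p, 1.14-fold higher, and miR-150, 1.42-fold lower in the injured artery. Both erythroid miRNAs were at least 2-fold lower, with sums of 125 on the injured and 677 on the uninjured array. Of the 6 striated muscle miRNAs 4 were detected, with sums over all 6 of 200 on the injured and 432 on the uninjured array, and miR-206 and miR-208 were detected on neither. The smooth muscle pair miR-143 and miR-145 summed to 14466 on the injured and 17749 on the uninjured array, and endothelial miR-126 and miR-126* to 615 and 626, with no member of either list past 2-fold. The part of these differences, or of the amount of nerve in each sample, in the members' values was not tested.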

How the data were processed

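Agilent's miRNA reagent was used to label total RNA with Cy3, per the labels' protocols. The authors deposited 1 linear signal intensity and a flag of 0 or 1 per feature and array, per the file headers. Scanner software, background subtraction and any normalization: not given in the sources used here. The authors' deposited value table holds a ratio: for all 349 names shared with the array files its injured column equalled injured over uninjured intensity (relative tolerance 1e-05), and its uninjured column was 1. The medians of both columns are 1.

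From these, log2 signals were set relative to the array's 75th percentile among the 158 miRNAs detected on both arrays (an intensity of 377.8 injured, 401 uninjured), which raised every log2 ratio by 0.09. Ratios are injured minus uninjured. A miRNA detected on 1 array has a bound, the bright signal over its own signal on the dim array or that array's lowest detected signal, whichever was higher; no bound is given where this would be under 1-fold, so 185 of the 192 miRNAs detected on at least 1 array have a value. A 2-fold difference served as descriptive threshold. All 10 members are named, with the other arms of their hairpins, the further nerve list, the non-members detected only on the uninjured array and, for a member, the 2 miRNAs nearest in signal. Members and lists were chosen with earlier results of these data known. The computation was tested on simulated data. Python 3.11.15, numpy 2.4.6 and pandas 2.3.3 were used. Alternatives are 5 other scalings, 2 other references for undetected signals, 2 other detection rules and the deposited ratio. The number of arrays limits the precision.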

Additional observations from a re-analysis of the deposited data

How the results depend on the processing

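Under the 5 other scalings the count of members at least 2-fold lower in the injured artery was 6 or 7 and that of members at least 2-fold higher was 1, while the share of all miRNAs at least 2-fold lower ran from 7.57% without scaling to 16.9% (31 of 183) with control features matched, against 7.03% as reported. The count of all miRNAs at least 2-fold higher ran from 16 to 30, against 33 as reported, and the median log2 ratio moved by up to -0.59. With bounds against the highest undetected signal 4 members were lower (10 of all 180, 5.56%), against the highest negative control also 4 (10 of 181, 5.52%), and with the authors' deposited ratio 6 (14 of 191, 7.33%). When detection also required a signal above the highest undetected one, 3 members were at least 2-fold lower (9 of all 170, 5.29%). Of the 10 members 3 were then detected on neither array, while 177 of all 350 miRNAs were detected on at least 1. With detection by signal above the highest negative control 3 members were likewise detected on neither array, while 182 of all 350 miRNAs were detected on at least 1. Under both rules 4 members were detected only on the uninjured array, and so were 4 of all 350 miRNAs. These rules drop miR-9 and miR-129*, whose uninjured signals lie under the level required. miR-338, the only member detected on both arrays that passed 2-fold under any setting, was lower in the injured artery under each setting. The other members past 2-fold had bounds, which by definition cannot change direction. No paired analysis was possible because each group held 1 array, and no alternative measures replicate error. Signals near the negative controls limit what can be said of miR-9, miR-129*, miR-326 and miR-598-3p.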
